A study of Rattus norvegicus with 8 samples.

Results

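The genes Emp1, Emp2, Emp3, Pmp22 and Tm4sf1, which encode small membrane proteins that cross the membrane 4 times, were followed in primary cultures of rat semicircular canal duct (SCCD) epithelium. Their 7 probe sets, of 15923 in the deposited table, are all the probe sets whose annotated symbol or synonym is one of the 5, out of 10411 genes with a symbol. The 5 genes were chosen from array results, with their differences between treated and untreated cultures on these same arrays already known. Those differences are therefore given as a description, without a test. Untreated cultures (control, n = 4) were compared with cultures given 100 nM dexamethasone, a synthetic glucocorticoid (n = 4), with 1 array of total RNA per sample. Both groups were primary cultures from the canals of neonatal Wistar rats, without genetic alteration, grown on permeable supports. The sources used here give neither the time of exposure for the arrays nor whether each sample came from its own dissection, so the spread between arrays may be partly technical. The study asked how glucocorticoid and other signals regulate ion transport by this epithelium, which absorbs sodium from the endolymph of the vestibular labyrinth.

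Emp1, Emp2, Emp3 and Pmp22 form the family of growth-arrest-specific gene 3, a branch of the claudin superfamily. Each protein has a pair of extracellular loops, and the family takes part in cell adhesion, growth control and membrane blebbing. PMP22 is best known as a component of compact peripheral myelin, where a changed gene dosage causes inherited neuropathy, and it is also found at the cell junctions of epithelia. EMP2 binds integrins and focal adhesion kinase and shapes the surface level of caveolin-1. TM4SF1 belongs to the separate L6 family, has a similar 4-pass layout without close sequence relation, and is abundant in endothelium and in many carcinomas.

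The promoters of Emp2, Pmp22 and Tm4sf1 are shown because these are the genes with the largest differences between the groups, higher with dexamethasone for Emp2 and Pmp22 and lower for Tm4sf1. Each window runs from 250 bases before to 50 after an annotated start in RefSeq (build GRCr8), 5′ to 3′ on the strand of the gene. No other start of the same gene was taken, and which start these cultures use was not tested. Capitals mark matches on either strand to the glucocorticoid receptor core motif AGAACA, the GC box GGGCGG, the TATA box TATAAA, the CCAAT box CCAAT and the AP-1 site TGANTCA, of which no marked matches overlap. For the receptor only the short core AGAACA was looked for, not a full binding site.
Emp2, chr10:5866619-5866918 of GRCr8, plus strand: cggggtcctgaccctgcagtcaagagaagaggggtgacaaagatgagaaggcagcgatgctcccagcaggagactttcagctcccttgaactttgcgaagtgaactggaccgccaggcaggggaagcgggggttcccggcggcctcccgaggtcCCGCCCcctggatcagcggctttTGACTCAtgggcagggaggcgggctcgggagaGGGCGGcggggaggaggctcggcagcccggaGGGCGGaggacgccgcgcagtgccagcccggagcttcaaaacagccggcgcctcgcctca
Pmp22, chr10:48294682-48294981 of GRCr8, plus strand: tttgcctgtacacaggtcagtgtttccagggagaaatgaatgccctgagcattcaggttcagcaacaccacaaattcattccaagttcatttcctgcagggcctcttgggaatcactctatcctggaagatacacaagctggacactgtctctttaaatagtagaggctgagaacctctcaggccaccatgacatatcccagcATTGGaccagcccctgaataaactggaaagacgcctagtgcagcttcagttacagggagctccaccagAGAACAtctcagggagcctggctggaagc
Tm4sf1, chr2:143616127-143616426 of GRCr8, minus strand: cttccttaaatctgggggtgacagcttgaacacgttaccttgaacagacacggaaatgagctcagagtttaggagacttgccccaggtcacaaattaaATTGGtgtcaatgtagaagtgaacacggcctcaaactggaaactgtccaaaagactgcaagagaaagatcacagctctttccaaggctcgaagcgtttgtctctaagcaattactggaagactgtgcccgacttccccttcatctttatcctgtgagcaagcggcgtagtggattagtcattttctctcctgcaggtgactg

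The Emp2 window, with a GC content of 68.0%, held 3 GC boxes and 1 AP-1 site. It held no TATA box, CCAAT box or receptor core motif. The Pmp22 window, at 49.7% GC, held 1 receptor core motif, which begins at base 22 after the start, and 1 CCAAT box. The Tm4sf1 window, at 46.7% GC, held 1 CCAAT box and none of the other motifs. Of the windows not printed, that of Emp1 held 1 GC box and 2 AP-1 sites, and that of Emp3 held 1 GC box, 1 TATA box and 1 CCAAT box. Among all 33469 promoter windows of the same length, 20.7% held a receptor core motif, 33.1% a GC box, 14.2% a TATA box, 37.5% a CCAAT box and 7.33% an AP-1 site. The median GC content of those windows was 51.7%. These matches describe the letters of the windows and were not compared with any binding data.

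Signals are linear intensities in arbitrary units, after each array had been brought to a trimmed mean of 500. As deposited, this mean was 500.1 on replicates 1 and 2 of both groups and 202 to 336 on replicates 3 and 4, and these pairs are called array sets below. All 9 epithelial markers with a probe set, among them the adhesion molecule Epcam and the keratin Krt8, were above the level of silent genes on all 8 arrays. That level, the 95th percentile of 38 probe sets for genes of other tissues, was 120 to 178 on the 8 arrays. The response to the drug was present, with Sgk1, a kinase that keeps the epithelial sodium channel at the membrane, 3.19 higher on the log2 scale (SE 0.15, adjusted p = 1.09e-06 from limma). All 5 glucocorticoid check genes with a probe set passed the test, Fkbp5 and Tsc22d3 among them, while 3 did on the signals as deposited or with the beta-actin ratio below as a covariate, 2 within replicates 3 and 4 alone and 4 or 5 under every other alternative. The signal at the 3′ end of beta-actin over that at its 5′ end, which rises as RNA degrades, was 8.10 to 13.7 in control and 6.17 to 8.07 with dexamethasone, highest on control replicate 3. The groups did not overlap in this ratio, but they did in that of GAPDH, at 2.10 to 3.79 and 2.14 to 3.18. Each difference of the 5 genes is also given below as fitted with the log2 of this beta-actin ratio as a covariate. Since the groups did not overlap in the beta-actin ratio, that fit cannot clearly separate it from treatment. Its values are given without an SE and are not to be read as corrected differences. In these bulk samples, fewer cells of a type and less RNA per cell cannot be told apart.

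Emp2 had the largest difference of the 5 genes. Its signal was 529.5, 581.2, 418.1 and 729.6 on control replicates 1 to 4 and 2724, 2556, 2363 and 3823 on dexamethasone replicates 1 to 4. The groups lay far apart, with replicate 4 the highest and replicate 3 the lowest in both. The control mean was 564.6 ± 129 (SD, n = 4) and the dexamethasone mean 2866 ± 654 (SD, n = 4), 5.09-fold higher. On the log2 scale the difference was 2.35 (SE 0.18, 95% confidence interval 1.95 to 2.75). Of the 10368 probe sets tested, those whose signal averaged at least 100 over the arrays, 10 had a higher difference. The difference was 2.25 within replicates 1 and 2 and 2.44 within replicates 3 and 4. With the beta-actin ratio as a covariate it was 1.99.

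Pmp22 was also higher with dexamethasone, at both of its probe sets. At 1370247_a_at the signal was 1262, 838.1, 488.7 and 756.2 on control replicates 1 to 4 and 2435, 2264, 1661 and 1656 on dexamethasone replicates 1 to 4. Every dexamethasone array was above every control array, and replicates 1 and 2 were above replicates 3 and 4 in each group. The control mean was 836.3 ± 321 (SD, n = 4) and the dexamethasone mean 2004 ± 405 (SD, n = 4), a log2 difference of 1.32 (SE 0.24). With the beta-actin ratio as a covariate that difference was 0.85, and without control replicate 3 it was 1.09.

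At the weaker probe set of Pmp22, 1370504_a_at, the signal was 405.9, 285.7, 216.6 and 203.6 in control and 480.7, 500.9, 325.5 and 414.3 with dexamethasone, by replicate. Here the groups overlapped, since control replicate 1 was above dexamethasone replicate 3, an array of the other array set. Within each array set, every dexamethasone array was above every control array. The log2 difference was 0.67 (SE 0.22), and it was 0.53 within replicates 1 and 2, 0.81 within replicates 3 and 4 and 0.32 with the beta-actin ratio as a covariate. After the group means were removed, the log2 signals of the 2 probe sets had a Pearson r of 0.84 over the 8 arrays, which share scaling and array set. Both probe sets are of the kind designed against several transcripts of 1 gene.

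Tm4sf1 was lower with dexamethasone. Its signal was 1809, 1893, 2423 and 1948 on control replicates 1 to 4 and 753.9, 757.4, 702.6 and 668.5 on dexamethasone replicates 1 to 4. The dexamethasone arrays lay close together, with a coefficient of variation of 5.95% against 13.7% in control, and all were far below the lowest control. The control mean was 2018 ± 276 (SD, n = 4) and the dexamethasone mean 720.6 ± 42.9 (SD, n = 4), 2.79-fold lower. The log2 difference was -1.48 (SE 0.12, 95% confidence interval -1.73 to -1.23), and 13 of the 10368 probe sets had a lower one. It was -1.29 within replicates 1 and 2, -1.66 within replicates 3 and 4 and -1.27 with the beta-actin ratio as a covariate.

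Emp3 had a smaller difference in the direction of Tm4sf1. Its signal was 519.7, 461.9, 456.5 and 300.2 on control replicates 1 to 4 and 308.6, 361.6, 278.1 and 264.5 on dexamethasone replicates 1 to 4. Control replicate 4 lay among the dexamethasone arrays, and the other 3 control arrays were above all of them. The log2 difference was -0.50 (SE 0.18), with -0.55 within replicates 1 and 2 and -0.45 within replicates 3 and 4. It was -0.67 without control replicate 4 and -0.52 with the beta-actin ratio as a covariate.

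Emp1, whose product was first described as a tumour-associated membrane protein, differed little at its strong probe set. At 1371527_at the signal was 3713, 3810, 3522 and 3953 in control and 4303, 4421, 4016 and 4881 with dexamethasone, by replicate. The groups did not overlap, but the gap between control replicate 4 and dexamethasone replicate 3 was small. The control mean was 3750 ± 181 (SD, n = 4) and the dexamethasone mean 4405 ± 360 (SD, n = 4), 1.17-fold higher. On the log2 scale the difference was 0.23 (SE 0.087), and 0.12 with the beta-actin ratio as a covariate.

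The second probe set of Emp1, 1369736_at, was near the level of silent genes and varied more. Its signal was 234.2, 219.6, 124.5 and 277 in control and 271.6, 224.2, 351.5 and 439.8 with dexamethasone, by replicate. The groups overlapped, and control replicate 3 was below the silent level of its array. The log2 difference was 0.60 (SE 0.26), but it was 0.12 within replicates 1 and 2, 1.08 within replicates 3 and 4, 0.36 without control replicate 3 and 0.099 with the beta-actin ratio as a covariate.

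**Figure D1:**
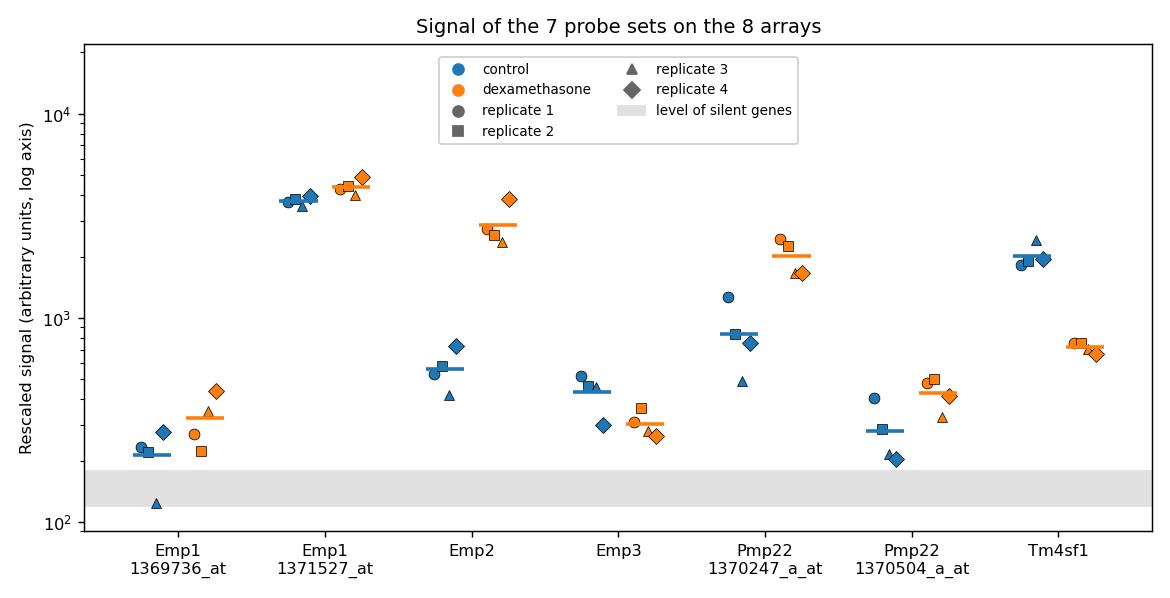
Rescaled signal (arbitrary units, log axis) of each probe set on every array, control in blue and dexamethasone in orange, with the replicate given by the marker and the group mean by the line. The grey band spans the level of silent genes over the 8 arrays, 120 to 178. Emp2 and Pmp22 (1370247_a_at) are higher and Tm4sf1 is lower on every dexamethasone array than on every control array. Emp3 and the weaker probe sets of Emp1 and Pmp22 overlap over both array sets together. Within either array set, Emp3 and the weaker Pmp22 probe set do not overlap.

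All 7 probe sets passed the filter on low signals. Of these, 3 were past an adjusted p of 0.05 in the fit across all probe sets (limma), 2 higher (Emp2 and Pmp22 at 1370247_a_at) and 1 lower (Tm4sf1). Over all 10368 probe sets tested, 2.69% were past that threshold, 1.88% higher and 0.810% lower. The groups did not overlap at 4 of the 7 probe sets, those 3 and Emp1 at 1371527_at, against 11.0% of all probe sets tested. Because the genes were chosen on this comparison, nothing is read from these counts. On the signals as deposited Emp2 alone was past the threshold, with no filter or with the beta-actin ratio as a covariate Emp2 and Tm4sf1 were, and within replicates 3 and 4 alone Tm4sf1 was.

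Whether the difference with dexamethasone had the same size in both array sets was not used to choose the genes, and it was tested as an interaction term. Of the 7 probe sets 0 passed the test, with adjusted p from 0.787 to 0.976 (limma). Of all 10368 probe sets tested, 0 passed, or 0%, and 587 had an unadjusted p under 0.05, of which 0 were among the 7. The largest estimate was that of Emp1 at 1369736_at, 0.96 larger on the log2 scale in replicates 3 and 4 (95% confidence interval -0.050 to 1.97, adjusted p = 0.787 from limma). For Emp2 it was 0.19 (95% confidence interval -0.64 to 1.03), and for Tm4sf1 -0.37 (95% confidence interval -0.81 to 0.067). With 2 arrays per group in each set these intervals are wide, and they do not show that the array sets gave the same difference.

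**Figure D2:**
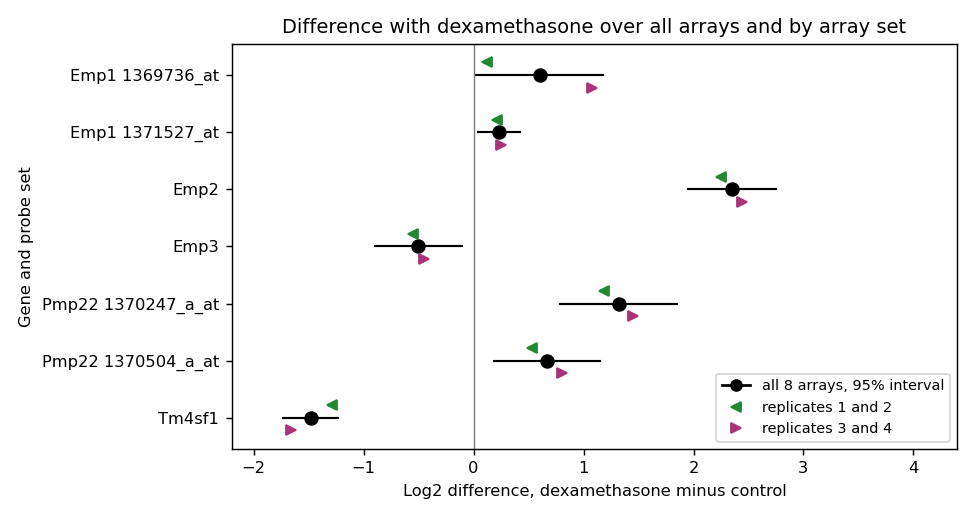
Log2 difference (dexamethasone minus control) of each probe set over all 8 arrays, with the 95% confidence interval from limma (circles and lines), and within replicates 1 and 2 or replicates 3 and 4 (triangles). The sign is the same in both array sets at all 7 probe sets, and the triangles are farthest apart at Emp1 1369736_at, 0.12 and 1.08.

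Within the groups, the 5 genes did not vary as 1 block. After the group means were removed, Emp2 and Emp1 (1371527_at) had a Pearson r of 0.92 over the 8 arrays, while Emp2 and Pmp22 (1370247_a_at) had 0.15. Emp2 was high and low on the same replicates as Emp1, and Pmp22 followed the array sets instead. Emp2 and Tm4sf1 had an r of -0.98 over all arrays, most of which is the difference between the groups, and -0.63 with the group means removed. These values describe 8 arrays that share scaling and array set.

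Other genes followed the same pattern across arrays. Among the named probe sets past the filter, those with the highest Pearson r of log2 signal with Emp2 over the 8 arrays were Clk1 (0.991), a splicing kinase, Atp6v1a (0.990), a subunit of the vacuolar proton pump, Tmem64 (0.988), Cd55 (0.987), a complement inhibitor at the cell surface, and Adm (0.987), which encodes adrenomedullin. Spearman rho for these 5 ran from 0.881 for Adm to 1 for Clk1. For Pmp22 (1370247_a_at) they were Dclk1 (0.987), Cdo1 (0.981), Dennd6a (0.978), Slc39a8 (0.976), a zinc and manganese transporter, and Dhtkd1 (0.972). For Tm4sf1 they were Dkk3 (0.988), Vstm4 (0.988), Swsap1 (0.982), Il1rl1 (0.980), the receptor of interleukin 33, and Nubpl (0.979), with rho as low as 0.690 for Il1rl1. For Emp1 (1371527_at) Coasy led (0.970), and for Emp3 Lman2l (0.978). Each of these is the top of 8695 or 8696 probe sets over 8 arrays split into 2 groups, so a high r is partly the shared difference between the groups.

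Of the related 4-pass proteins none passed the test over all 8 arrays. Other genes were looked for under 56 symbols (tetraspanins, the rest of the L6 family and the nearest relatives of PMP22). Some tetraspanins were listed under 2 symbols, so these stand for fewer than 56 genes. Of them 30 genes had a probe set, and 23 genes with 26 probe sets passed the filter. Of those 26 probe sets 0 passed the test (limma, adjusted p under 0.05), and 2 had an unadjusted p under 0.05, Tspan9 and Tspan15. Over all probe sets tested 2.69% passed, so 0 of 26 is near that share and is not read as a lack of response. With the beta-actin ratio as a covariate, and without control replicate 3, 1 tetraspanin passed. Their log2 differences ran from -0.48 to 0.58, with a median of 0.055, beside a median of -0.023 over all probe sets tested. Tspan15, a tetraspanin that directs the protease ADAM10, was 0.46 higher (SE 0.14, adjusted p = 0.122 from limma). Cd63 and Cd81, tetraspanins of endosomes and exosomes, had log2 differences of -0.045 and -0.046 (adjusted p = 0.866 and 0.825 from limma). Perp, a relative of PMP22 at desmosomes, had 0.13 and -0.17 at its 2 probe sets, and Tmem47, a relative at cell junctions, had 0.034 (adjusted p = 0.907 from limma). Tm4sf4, the only other L6 gene with a probe set, was below the silent level on every array.

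**Figure D3:**
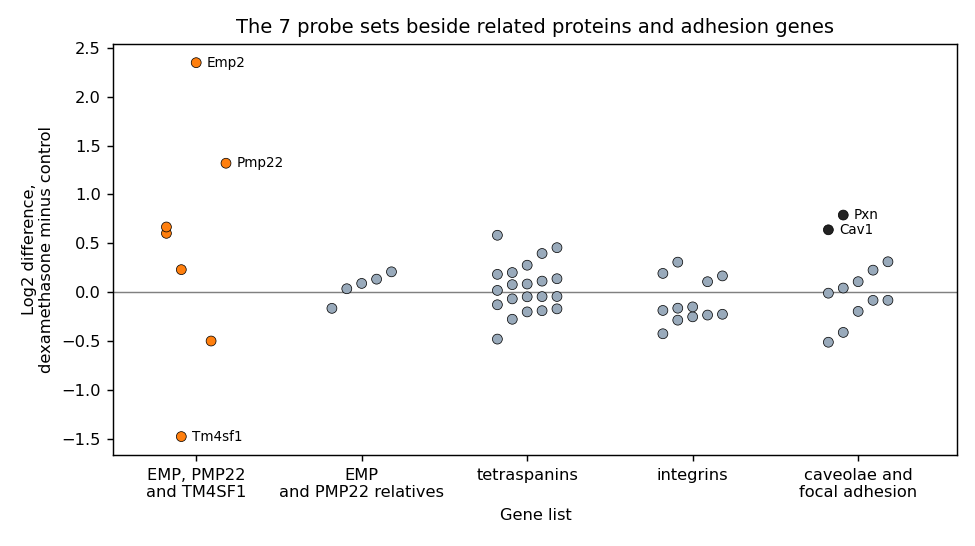
Log2 difference (dexamethasone minus control, n = 4 arrays per group) of every tested probe set of the 5 genes (orange) beside the lists of relatives of PMP22, tetraspanins, integrins, and caveolae with focal adhesion genes. Black points passed the test (limma, adjusted p under 0.05) and grey points did not. Cav1 and Pxn are the 2 that passed, and the other 4-pass proteins lie between -0.48 and 0.58.

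Among genes of caveolae and focal adhesions, Cav1 and Pxn rose. Whether this is linked to Emp2 was not tested. At 1372111_at, Cav1, the coat protein caveolin-1, averaged 3352 ± 137 (SD) on the 4 control arrays against 5224 ± 382 (SD) on the 4 dexamethasone arrays. Its log2 difference was 0.64 (SE 0.083, adjusted p = 0.00148 from limma), while its other probe set was below the silent level on every array. Pxn, the focal adhesion adaptor paxillin, was 0.79 higher (SE 0.11, adjusted p = 0.00212 from limma). These were 2 of the 10 genes of the list past the filter, beside 1.88% of all probe sets tested that passed as higher. As lower 0 passed, and the median log2 difference was 0.015. Bcar1, of the same list, had the lowest difference at -0.51 (SE 0.20, adjusted p = 0.233 from limma). Cavin3, the strongest gene of the list, had -0.011 (adjusted p = 0.978 from limma). On the signals as deposited and within replicates 3 and 4 alone 0 of the list passed, and with the beta-actin ratio as a covariate 1 did. The focal adhesion kinase Ptk2 did not pass, at 557.5 ± 86.5 (SD, n = 4) without and 527.2 ± 88.3 (SD, n = 4) with dexamethasone. Of 9 integrin genes with 12 probe sets tested, 0 passed and 0 had an unadjusted p under 0.05 (limma), with log2 differences from -0.43 to 0.31. Over all probe sets tested 2.69% passed, so a count of 0 here or for the growth-arrest-specific genes below is near that share. Itgb1, the common beta subunit, had 0.17 at its stronger probe set (adjusted p = 0.372 from limma). Of the other growth-arrest-specific genes, 3 were tested and 0 passed, and Gas7, an actin regulator, had the largest difference at 0.93 (SE 0.28, adjusted p = 0.106 from limma). With the replicate number or the array set as a block, within replicates 1 and 2 alone, and without dexamethasone replicate 3, 1 of these genes passed.

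Markers of cells that are rich in PMP22 or TM4SF1 were measured on the same arrays. Of 14 Schwann cell and myelin markers 11 had a probe set. Of these, 4 genes (Cnp, Egr2, S100b and Sox10) were above the silent level on all 8 arrays and 5 on none, the latter including Mbp, a main myelin protein. S100b and Sox10, glial markers also used for melanocytes, were above it on all arrays, with log2 differences of -0.028 and -0.023 (adjusted p = 0.967 and 0.977 from limma). The summed signal of these 11 genes was 4477 to 4880 in control and 3614 to 4311 with dexamethasone. Most of this gap lay in 1 probe set of Cnp, an enzyme of myelin-forming cells, at 2328 ± 117 (SD, n = 4) against 1801 ± 288 (SD, n = 4), which did not pass the test (log2 difference -0.38, adjusted p = 0.125 from limma), and the other probe set of Cnp had a log2 difference of 0.024. Of 8 endothelial markers with a probe set, 1, the VEGF receptor Kdr, was above the silent level on all 8 arrays, and 5 were above it on none, among them Pecam1, Vwf and Tie1. Kdr was 2.00 higher (SE 0.16, adjusted p = 2.98e-05 from limma) while Flt1, another VEGF receptor, had a log2 difference of -1.96 at 1 of its 3 probe sets (SE 0.39, adjusted p = 0.0200 from limma), all near or below the silent level. Of the pair, 1 passed on the signals as deposited, after quantile normalization, with no filter or one of 250, within replicates 3 and 4 alone, with the beta-actin ratio as a covariate, and without control replicate 2, control replicate 3 or dexamethasone replicate 2. The endothelial markers summed to 1281 to 1582 on control arrays and 3069 to 3698 on dexamethasone arrays. Kdr carried this difference, at 704.3 ± 151 (SD, n = 4) against 2763 ± 250 (SD, n = 4), and Esam, an adhesion molecule and the only other gene of the list tested beside Flt1, had a log2 difference of 0.088 (adjusted p = 0.901 from limma). Of 10 fibroblast markers with a probe set, 5, among them the collagen Col3a1, were above the silent level on all 8 arrays and 4 on none. Of 9 macrophage markers with a probe set, 1 was above it on all 8 arrays and 5 on none. Fibroblast markers summed to 5931 to 7691 in control and 4607 to 7733 with dexamethasone. Macrophage markers summed to 819.9 to 1368 and 1084 to 4513, so both lists overlapped between the groups. The macrophage marker Lyz2 ran from 48.77 to 3415 on the dexamethasone arrays. Of either list 0 genes passed the test (limma, 5 and 4 genes tested), beside 2.69% of all probe sets tested. Within replicates 1 and 2 alone 1 gene of each list passed, and with the replicate number or the array set as a block 1 fibroblast marker did. Of the 9 epithelial markers, 1 passed, the keratin Krt18, at a log2 difference of -0.47 (adjusted p = 0.0300 from limma), and 0 did on the signals as deposited, with median centring, no filter or no trend, within replicates 3 and 4 alone, with the beta-actin ratio as a covariate or when any 1 dexamethasone array was left out. With the replicate number or the array set as a block, 2 epithelial markers passed. The part of these cells and of RNA quality in the differences of the 5 genes was not tested further.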

How the data were processed

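The authors hybridized total RNA, labelled with 2 cycles of in vitro transcription, to Affymetrix rat A-series arrays and deposited 1 signal intensity per probe set and array on a linear scale, which the labels describe as scaled to a target of 500. Software versions are not given in the sources used here. Since 4 arrays missed the target, every array was multiplied by a factor that brought its 2% trimmed mean to 500, a floor of 16 was applied and signals were put on the log2 scale. The 10368 of 15866 non-control probe sets with a mean of at least 100 were fitted with limma 3.58.1 in R 4.3.3 (mean-variance trend, two-sided, Benjamini-Hochberg adjustment), 4 control against 4 dexamethasone arrays. The number of arrays limits the precision.

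The members and lists were chosen with earlier results of these data known. Probe sets were named through the platform annotation, updated by Entrez identifier, which gives 12783 of them 1 symbol, 312 several and 2771 none. Named genes are all probe sets of the 5 genes, list genes past the threshold, genes among the 2 strongest of a list, the check genes, and the 5 genes most alike across arrays to the strongest probe set of each member. Tmem47, Tspan9, Tspan15, Ptk2, Bcar1, Gas7, Sox10, Egr2, Mbp, Pecam1, Vwf and Tie1 were named after their values were seen. The 40 silent genes, of which 36 had a probe set, and the covariate fit were added after the files had been seen. The limma step was tested on simulated data.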

Additional observations from a re-analysis of the deposited data

How the results depend on the processing

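The sign of all 7 log2 differences was the same under all 22 alternatives, and 143 of the 154 values moved by less than 1 SD between replicates. The 11 that moved further were, for signals as deposited, 0.39 for Emp1 (1371527_at) and -1.31 for Tm4sf1. With the beta-actin ratio as a covariate, chosen after seeing the data, they were 0.099 and 0.12 for Emp1 (1369736_at and 1371527_at), 1.99 for Emp2, 0.85 for Pmp22 (1370247_a_at) and -1.27 for Tm4sf1. For replicates 1 and 2 alone, and for replicates 3 and 4 alone, they were 0.12 and 1.08 for Emp1 (1369736_at) and -1.29 and -1.66 for Tm4sf1. Signals as deposited move the median of all tested probe sets from -0.023 to 0.14 on the log2 scale. Of the 7 probe sets 3 passed the threshold, against 1 on signals as deposited and 1 in replicates 3 and 4 alone. Pmp22 (1370504_a_at) also passed with the array set as a block or without control replicate 1, and Emp3 without control replicate 4. Because the genes were chosen on this comparison, nothing is read from any pass of these 7 probe sets, here or below.

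Over all probe sets 279 were called, against 36 as deposited, 102 with no filter, 578 with the array set as a block, 434 in replicates 1 and 2 alone, 21 in replicates 3 and 4 alone, 65 with the covariate, and 179 (without dexamethasone replicate 2) to 277 (without control replicate 4) leaving out 1 array, with 184 without dexamethasone replicate 1. The interaction was called for 4 probe sets with no filter and for 0 under the other 6 alternatives run. With the replicate block 484 were called, among them Pmp22 (1370504_a_at). Deviations of same-numbered arrays correlated at 0.035 to 0.41, and 4 of 8 arrays correlated best with their own number, so the numbers were not taken as pairs. The cause of these shifts was not tested.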
